A study of Mus musculus with 75 samples.

Results

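The genes described here are 10 members of the transforming growth factor beta (TGF-beta) pathway: the ligands Tgfb1, Tgfb2 and Tgfb3, the receptors Tgfbr1 and Tgfbr2, the feedback inhibitors Smad7, Pmepa1 and Skil, and the matrix targets Tgfbi and Postn. They were found by symbol among the 21051 symbols of the table for untreated mice and 2 h and the 21076 symbols of the table for 24 h, and 10 of 10 passed the filter on low counts in each of the 3 experiments. The set was chosen by pathway with earlier results of these data known, among them lower Pmepa1 and Postn after lipopolysaccharide (LPS) in the small intestine of knockout mice at 24 h. Values of that comparison are therefore given as a description with no test. The other comparisons are tested over all genes, but a result that was known when the genes were chosen is no independent support.

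The cells are labelled EGC, that is enteric glial cells, and came from mice of both sexes carrying a green fluorescent (eGFP) reporter, which each group shares. Untreated adult reporter mice gave the myenteric plexus and the submucosal plexus, each from small intestine (6 libraries per plexus) and colon (5 libraries per plexus). Reporter mice injected once with 2 mg/kg LPS, a bacterial endotoxin, or with phosphate-buffered saline (PBS) gave myenteric plexus at 2 h, with 4 libraries per region and treatment. At 24 h after the same dose, myenteric plexus came from Gpr37WT reporter mice (wild type) and Gpr37-/- reporter mice (knockout), which lack the G protein-coupled receptor Gpr37. Wild-type small intestine had 6 PBS and 4 LPS libraries and wild-type colon 4 PBS and 5 LPS libraries. Knockout small intestine had 4 PBS and 5 LPS libraries and knockout colon 5 PBS and 4 LPS libraries. The labels give neither strain nor age in weeks, nor how the cells were separated from other cells.

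TGF-beta ligands are secreted in a latent form bound to the matrix and, once released, bring together the type II receptor Tgfbr2 and the type I receptor Tgfbr1. The receptors phosphorylate Smad2 and Smad3, which enter the nucleus with Smad4 and turn on, among others, genes for collagen and other matrix proteins. Inhibitors of the pathway itself, such as Smad7 and Pmepa1, are also switched on, so that their transcripts are widely used as readouts of TGF-beta signalling. In the gut the pathway is known for restraining immune cells and for wound repair and fibrosis.

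Depth and purity set limits. Library totals ran from 2547296 to 9002546 counts in untreated mice, from 1990744 to 7883251 at 2 h and from 2882539 to 33283346 at 24 h, and counts come from PCR-amplified cDNA without molecular identifiers. Gpr37 had 3 or fewer counts in 17 of 18 knockout libraries, and also in 4 of 19 wild-type libraries, both of wild-type mouse 3 (0 and 2 counts) and the colon libraries of wild-type mice 5 and 8 (0 counts each). Of the 5 LPS libraries of wild-type colon, 3 (mice 3, 5 and 8) are thus among them, and results at 24 h were also computed without mouse 3 and in mice numbered 11 and above alone. Of the wild-type LPS mice, the latter subset keeps only mice 13 and 16 in each region. Transcripts of 6 glial markers (Sox10, S100b, Gfap, Foxd3, Erbb3, Ednrb) were present in each of the 16 groups, with markers of other cells beside them. Mitochondrial genes took a median of 15.4% of counts in 12 of the 24 h libraries, those whose mouse number is 10 or less, and 4.57% in the other 25. The LPS group of wild-type colon held 3 libraries of the first kind, again mice 3, 5 and 8, and its PBS group 0, and the labels do not call mouse number a batch. These are bulk libraries, so fewer cells of a type and less RNA per cell cannot be told apart.

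In untreated myenteric plexus of the small intestine, levels per length of exon placed Postn and Tgfb2 at the top and Tgfb1 at the bottom. On the scale of CPM (each count divided by the library's TMM-scaled total and set to a common depth) per kb of merged exons, Postn stood at 93.4 ± 27.7 (SD, n = 6) and Tgfb2 at 87.0 ± 23.9, which did not differ beyond their spread. Pmepa1 followed at 49.1 ± 13.4, and then Tgfbr2 at 25.5 ± 12.9, Tgfb3 at 21.9 ± 6.49 and Tgfbi at 15.7 ± 7.67, neighbours whose values overlapped within 1 SD. Skil stood at 5.45 ± 1.26, Smad7 at 3.41 ± 1.28 and Tgfbr1 at 3.35 ± 1.23. Tgfb1 stood at 0.223 ± 0.351, and 1 of its 6 libraries held no count. Among the ligands, Tgfb2 was thus the most abundant in these myenteric libraries and Tgfb1 the least.

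**Figure D1:**
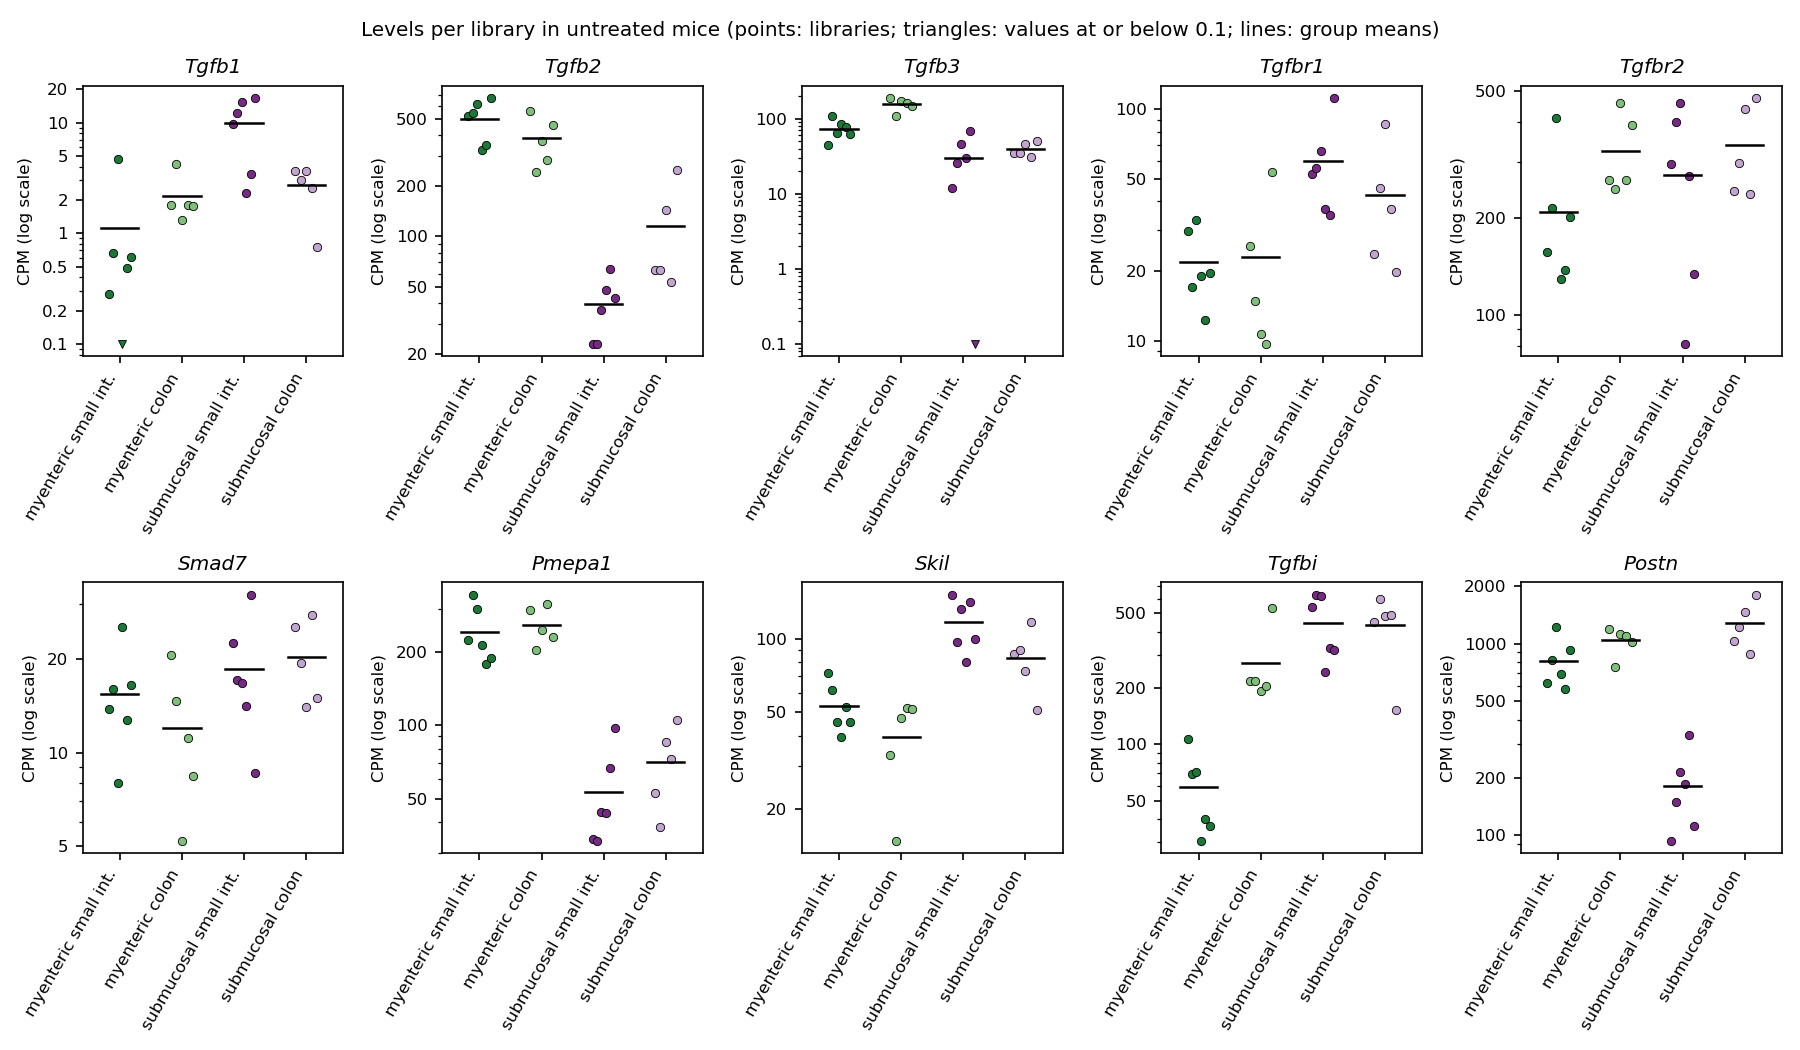
CPM on a log scale (y axis) of each of the 10 genes at 4 sites of untreated mice (x axis), with 1 point per library and lines at group means. The group means of Tgfb2 and Pmepa1 are lower in submucosal than in myenteric libraries of both regions, whereas Postn has its lowest mean in submucosal and Tgfbi in myenteric libraries of the small intestine.

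The 2 plexuses of the untreated small intestine differed in 7 of the 10 genes (edgeR quasi-likelihood test, Benjamini-Hochberg adjusted p under 0.05, which is what "called" means below), where 43.5% of all 14090 genes were called. Tgfb2 (chromosome 1, 186622792 to 186705989, minus strand, GRCm38) ranged from 326.5 to 665.1 CPM with a median of 531.3 in the 6 myenteric libraries and from 22.9 to 64.3 CPM with a median of 39.6 in the 6 submucosal libraries. The groups did not overlap, and the log2 fold change was -3.67 ± 0.39 (standard error, adjusted p = 7.16e-07). Pmepa1 (chromosome 2, 173224458 to 173276533, minus strand) ranged from 178.9 to 343.4 CPM (median 218.4) in myenteric and from 33.6 to 97.8 CPM (median 43.9) in submucosal libraries, a log2 difference of -2.18 ± 0.28 (adjusted p = 5.21e-06). Postn (chromosome 3, 54361109 to 54391037, plus strand) encodes periostin, a matrix protein of fibroblasts and also of Schwann-lineage cells. Its level ranged from 580.8 to 1229 CPM (median 756.6) in myenteric and from 93.7 to 333.9 CPM (median 167.4) in submucosal libraries, a log2 difference of -2.16 ± 0.28 (adjusted p = 5.46e-06). So the ligand Tgfb2, the inhibitor Pmepa1 and the matrix gene Postn were all lower in the submucosal libraries, with no overlap.

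The other 4 called genes were higher in the submucosal libraries of the small intestine. Tgfbi (chromosome 13, 56609523 to 56639562, plus strand), which encodes a secreted matrix adhesion protein first found as a TGF-beta-induced gene, ranged from 30.7 to 106.7 CPM (median 54.9) in myenteric and from 243.9 to 628.8 CPM (median 434.7) in submucosal libraries. Its log2 difference was 2.92 ± 0.38 (adjusted p = 6.08e-06), opposite in sign to that of the other matrix gene, Postn. Tgfb1 (chromosome 7, 25687002 to 25705077, plus strand), the ligand best known from immune cells, ranged from 0 to 4.71 CPM against 2.33 to 16.5 CPM, with a log2 difference of 3.07 ± 0.81 (adjusted p = 0.00424). Its groups overlapped. The type I receptor Tgfbr1 was higher by 1.44 ± 0.43 (adjusted p = 0.00968) and Skil, a co-repressor of SMAD proteins that TGF-beta signalling removes and then induces, by 1.15 ± 0.26 (adjusted p = 0.00147). Tgfb3 (adjusted p = 0.052), Tgfbr2 and Smad7 were not called here. Tgfb3 held no count in 1 of the 6 submucosal libraries and was called without that library, at -1.02 (adjusted p = 0.0130), and by DESeq2 (adjusted p = 0.0319).

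In the untreated colon 4 of the 10 genes were called between the plexuses, where 21.8% of all genes were. Pmepa1 ranged from 203.1 to 314.6 CPM in the 5 myenteric and from 38.2 to 105.2 CPM in the 5 submucosal libraries, a log2 difference of -1.86 ± 0.31 (adjusted p = 0.000386). Tgfb3 (chromosome 12, 86056745 to 86079041, minus strand) ranged from 108.7 to 187.2 CPM against 30.7 to 50.9 CPM, a log2 difference of -1.97 ± 0.58 (adjusted p = 0.0198), and the groups of both genes did not overlap. With sex and replicate number as a replicate block the call of Tgfb3 was lost (adjusted p = 0.0599). Tgfb2 differed by -1.74 ± 0.40 (adjusted p = 0.00389) and Skil by 1.07 ± 0.29 (adjusted p = 0.0118), both with overlap. Postn, at 1039 ± 171 CPM in myenteric and 1281 ± 363 CPM in submucosal colon, was not called (0.30 ± 0.30).

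Between the regions, Tgfbi alone was called in the myenteric plexus, where 3.19% of all genes were. It ranged from 191.8 to 532.1 CPM in colon, above each small-intestinal library, with a log2 difference of 2.21 ± 0.38 (adjusted p = 0.00444). In the submucosal plexus, where 5.18% of all genes were called, Postn was higher in colon by 2.82 ± 0.30 (adjusted p = 1.33e-05), from 881.5 to 1801 CPM, with no overlap. Tgfb2 was higher in submucosal colon by 1.53 ± 0.37 (adjusted p = 0.0173), and this call was lost without the colon submucosal library in which Tgfb2 was highest, at 248.6 CPM (1.04, adjusted p = 0.109). Tgfb2 also overlapped between the regions.

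Markers of other cells moved with these site differences. From myenteric to submucosal plexus of the small intestine, the summed level of the 6 glial markers went from a range of 1347 to 2407 CPM to a range of 102 to 273 CPM, and 6 of 6 were called lower. In the same comparison 7 of 7 macrophage markers, 5 of 5 lymphocyte markers and 5 of 5 epithelial markers were called higher. Lower were 6 of 6 smooth muscle markers, 6 of 6 neuronal markers, 4 of 4 endothelial markers and 2 of 3 markers of interstitial cells of Cajal, the pacemaker cells of the gut. Of 5 mesothelial markers 4 were lower and 1 higher, and their sum ranged from 32.4 to 573 CPM in myenteric and from 309 to 1653 CPM in submucosal libraries, which overlap. The neuronal sum went from 569 to 1946 CPM to 35.1 to 115 CPM. The macrophage sum went from 122 to 2002 CPM to 1887 to 10406 CPM. In the colon 2 of 6 glial markers were lower and 6 of 7 macrophage markers higher in the submucosal plexus. Sums that separated completely between the colon plexuses were those of smooth muscle (5884 to 19388 CPM in myenteric, 369 to 1189 CPM in submucosal libraries), interstitial cells of Cajal (291 to 1002 and 51.9 to 169 CPM), neurons (95.2 to 239 and 19.2 to 49.2 CPM), glia (957 to 1816 and 169 to 693 CPM) and, in the other direction, neutrophils (0 to 3.50 and 28.5 to 78.8 CPM). Between regions of the myenteric plexus, where Tgfbi was called, 5 of 7 fibroblast markers were higher in colon (1484 to 6608 CPM against 718 to 1186 CPM), 5 of 6 neuronal markers lower (95.2 to 239 against 569 to 1946 CPM) and 1 of 3 markers of interstitial cells of Cajal higher (291 to 1002 against 94.9 to 199 CPM). Also called there were 2 of 6 smooth muscle markers, higher, and 1 of 7 macrophage markers, lower, with sums that overlapped. In the submucosal plexus, where Postn and Tgfb2 were called, the summed levels overlapped between the regions for each list. Higher in submucosal colon were 3 of 7 fibroblast markers (1899 to 2891 CPM against 394 to 2741 CPM), 3 of 4 endothelial markers (177 to 705 against 20.1 to 285 CPM), 1 of 6 glial markers (169 to 693 against 102 to 273 CPM) and 1 of 3 neutrophil markers tested, and 1 each of the lymphocyte, macrophage and neuronal markers was lower. The part of these cells in the differences of Tgfb2, Pmepa1, Postn, Tgfbi and the other genes was not tested.

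Promoter windows from 250 bases before to 50 bases after the transcript start (RefSeq, GRCm38.p6) matched 6 of the 10 genes in 8 windows. They are shown for Tgfb2, Tgfbi and Postn, an abundant ligand and the matrix targets, because in the small intestine Tgfbi differed between the plexuses in the opposite direction to the other two. Capitals mark the single SMAD-binding element CAGACA, searched on both strands. Tgfb2 starts at chr1:186705940-186706239 (minus strand), Tgfbi at chr13:56609336-56609635 (plus strand) and Postn at chr3:54360857-54361156 (plus strand).
Tgfb2: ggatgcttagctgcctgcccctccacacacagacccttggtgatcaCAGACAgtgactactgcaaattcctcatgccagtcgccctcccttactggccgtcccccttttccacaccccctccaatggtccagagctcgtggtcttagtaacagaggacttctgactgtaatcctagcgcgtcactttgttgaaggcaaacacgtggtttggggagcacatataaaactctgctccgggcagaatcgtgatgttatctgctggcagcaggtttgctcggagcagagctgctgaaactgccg
Tgfbi: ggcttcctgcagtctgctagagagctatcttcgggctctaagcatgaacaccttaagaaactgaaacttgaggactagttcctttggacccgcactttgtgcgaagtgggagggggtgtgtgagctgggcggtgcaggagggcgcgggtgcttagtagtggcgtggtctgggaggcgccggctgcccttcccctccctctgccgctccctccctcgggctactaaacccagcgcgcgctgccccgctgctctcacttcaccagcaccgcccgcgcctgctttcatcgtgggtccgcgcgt
Postn: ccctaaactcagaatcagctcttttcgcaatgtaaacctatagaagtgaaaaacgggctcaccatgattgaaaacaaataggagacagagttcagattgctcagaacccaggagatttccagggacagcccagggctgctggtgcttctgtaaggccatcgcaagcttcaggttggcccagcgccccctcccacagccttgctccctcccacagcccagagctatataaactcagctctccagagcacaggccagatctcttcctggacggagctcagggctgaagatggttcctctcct

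Tgfb2 holds CAGACA once, at base 47 of its window, and the second Tgfbr1 window (chr4:47385966-47386265, plus strand) holds it once at base 48. The letters occur in 21.0% of all 32851 promoter windows of this length. Neither the SMAD palindrome GTCTAGAC, found in 0.213% of all windows, nor an AP-1 site (TGAGTCA or TGACTCA, found in 5.20%) occurs in the 8 windows. Such matches describe letters and not binding. Tgfb3, Smad7, Pmepa1 and Skil were not matched.

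At 2 h after LPS none of the 10 genes was called in either region by edgeR, where 1.1% of 13107 genes were called in small intestine and 0.778% in colon. DESeq2 called 0 as well, and 1 member in each region, Skil, had an unadjusted p under 0.05. The median log2 fold change of the 10 genes was -0.09 in small intestine and -0.07 in colon, beside medians of -0.02 and -0.00224 over all genes. In small intestine Skil measured 37.1, 44.4, 52.6 and 63.8 CPM in the PBS libraries and 75.0, 95.3, 107.3 and 154.7 CPM in the LPS libraries. The 4 LPS libraries lay above the 4 PBS libraries, as for 3.44% of all genes, but the log2 fold change of 1.12 ± 0.40 had an adjusted p of 0.462. In colon Skil measured 21.1, 25.1, 28.5 and 52.4 CPM with PBS and 33.7, 57.5, 109.7 and 112.0 CPM with LPS, which overlap (1.30 ± 0.40, adjusted p = 0.294).

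**Figure D2:**
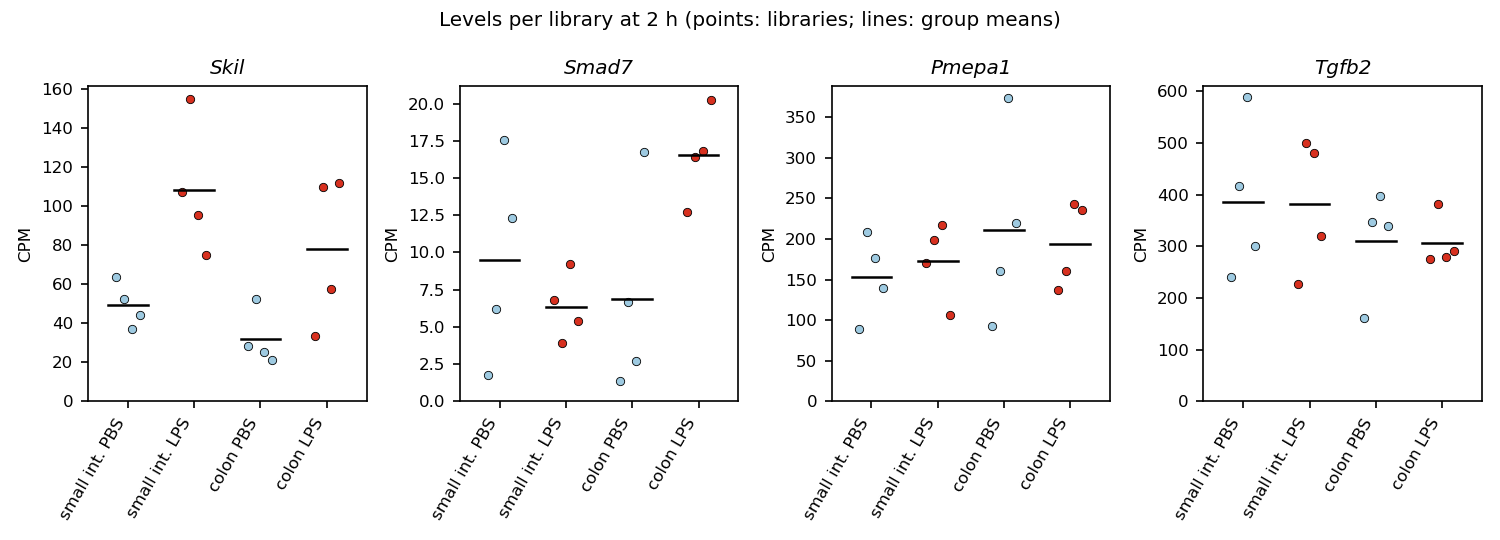
CPM (y axis, linear from 0) of Skil, Smad7, Pmepa1 and Tgfb2 at 2 h, with 1 point per library, PBS in blue and LPS in red, and lines at group means. Skil separates in small intestine only, while Pmepa1 and Tgfb2 overlap between PBS and LPS in both regions.

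Smad7, which recruits ubiquitin ligases to the type I receptor and so ends its signal, measured 1.40, 2.72, 6.67 and 16.8 CPM with PBS and 12.7, 16.4, 16.8 and 20.2 CPM with LPS in colon. The log2 fold change of 1.26 ± 0.87 was not called, and in small intestine the value was -0.57 ± 0.86. Whether the 2 regions differed was tested as an interaction, which gave 1.83 ± 1.22 for Smad7 (adjusted p = 1.00), and 0 of the 10 genes were called, as for 0% of all genes. No member had an unadjusted p under 0.05 in that test, and DESeq2 called 0 members and 44 of all genes. Pmepa1, the most abundant of the inhibitors, measured 89.5, 139.8, 176.9 and 209.2 CPM with PBS and 106.1, 170.7, 199.2 and 217.1 CPM with LPS in small intestine (0.17 ± 0.38). Tgfb2 measured 386.4 ± 153 CPM with PBS and 382.2 ± 131 CPM with LPS there (-0.02 ± 0.32). Tgfb1 reached 8.63 CPM at most and Tgfbr1 ranged from 0 to 63.7 CPM within 1 group of 4, and the standard errors of their log2 fold changes at 2 h were 1.28 to 1.73.

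At 24 h after LPS the inhibitor Pmepa1 was lower in both regions of the wild type and in knockout colon, and the ligand Tgfb3 was lower in wild-type small intestine. Pmepa1 encodes a membrane protein that keeps SMAD proteins from the receptor. In wild-type small intestine it measured 84.1, 112.8, 128.2, 213.2, 215.1 and 308.4 CPM with PBS (177 ± 83.9) and 12.7, 18.9, 23.1 and 31.8 CPM with LPS (21.6 ± 8.03). Each LPS library lay below each PBS library, and the log2 fold change was -3.04 ± 0.49 (adjusted p = 0.000103). In wild-type colon it measured 172.9, 221.3, 226.9 and 283.2 CPM with PBS and 13.7, 37.5, 42.5, 44.5 and 52.3 CPM with LPS. Those groups did not overlap either (-2.57 ± 0.46, adjusted p = 0.000751). Without mouse 3 the values were -3.26 (adjusted p = 0.000416) and -2.60 (adjusted p = 0.00206), and in mice numbered 11 and above alone they were -2.78 and -2.44, both called. The latter rest on LPS mice 13 and 16 alone in each region.

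**Figure D3:**
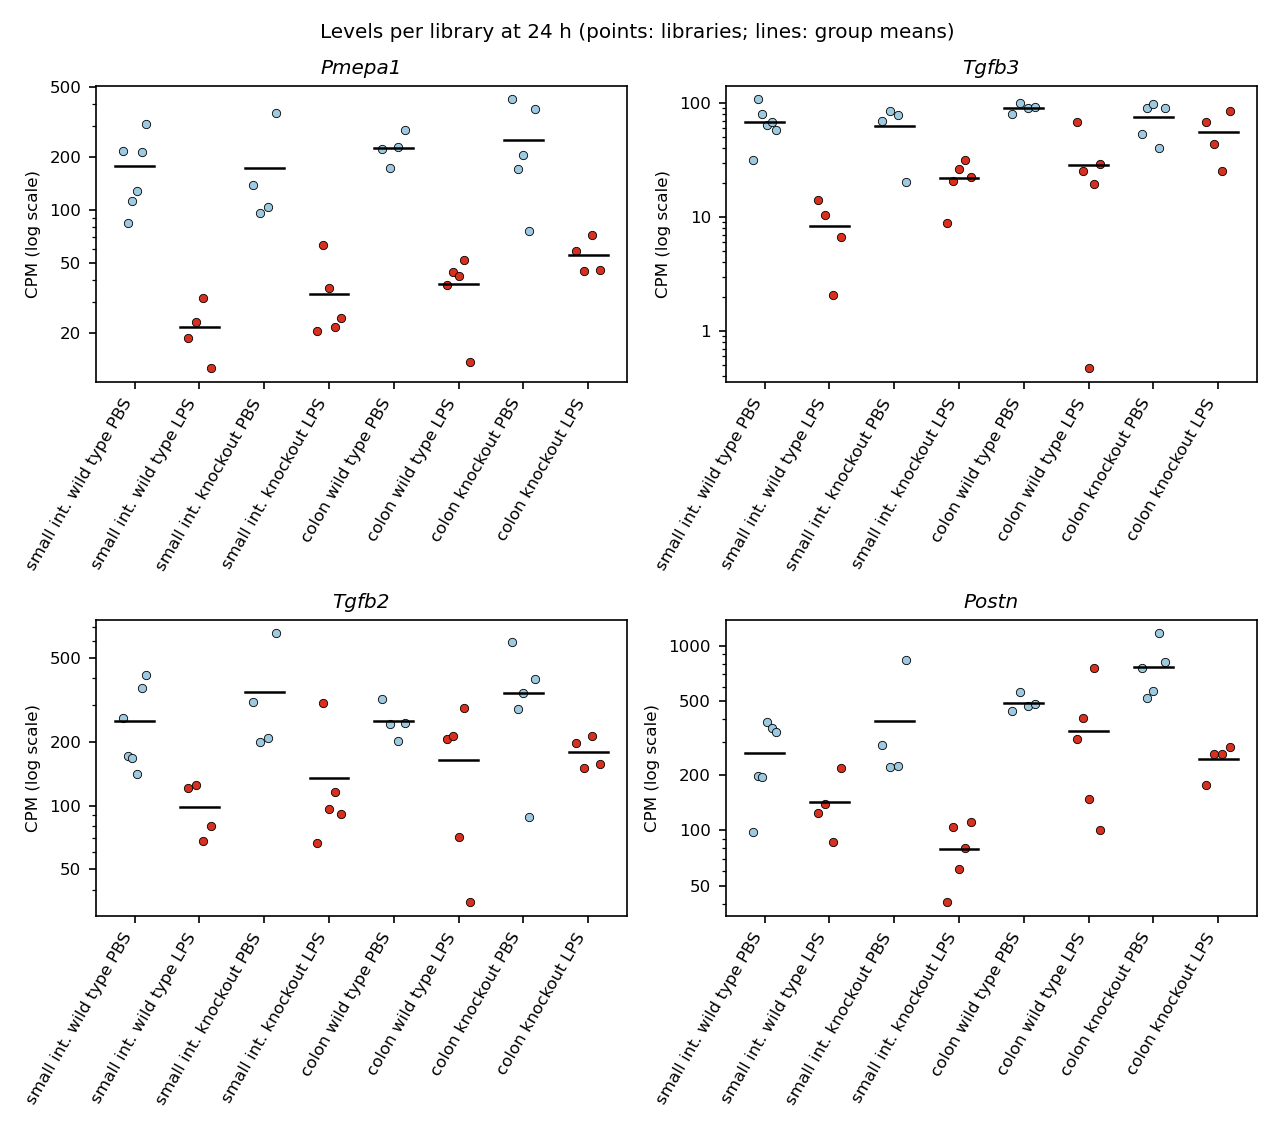
CPM on a log scale (y axis) of Pmepa1, Tgfb3, Tgfb2 and Postn at 24 h in 8 groups (x axis), with 1 point per library, PBS in blue and LPS in red, and lines at group means. Among the 3 tested pairs of groups, Pmepa1 separates LPS from PBS in each, Tgfb3 in the wild type of both regions, Tgfb2 in wild-type small intestine and Postn in knockout colon, and knockout small intestine is shown for description only.

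In knockout colon Pmepa1 measured 75.8, 170.3, 204.3, 373.7 and 423.6 CPM with PBS and 45.1, 45.9, 58.2 and 72.6 CPM with LPS. The groups did not overlap, and the log2 fold change was -2.17 ± 0.48 (adjusted p = 0.0191). This call was less stable than those of the wild type. It was lost in mice numbered 11 and above (-1.57, adjusted p = 0.0646), in a fit of these 2 groups alone (-2.16, adjusted p = 0.169), and without any 1 of PBS mice 1 and 7 and LPS mice 2, 17 and 21, where the adjusted p ran from 0.0521 to 0.0791. PBS mouse 1 (423.6 CPM) and PBS mouse 7 (373.7 CPM) held the highest levels, and their summed glial markers were 2944 and 2389 CPM against 355 to 1460 CPM in the other PBS libraries of knockout colon. In knockout small intestine, the comparison known beforehand, Pmepa1 measured 96.8, 103.9, 138.8 and 357.0 CPM with PBS and 20.8, 21.7, 24.4, 36.1 and 63.4 CPM with LPS, a log2 difference of -2.38 ± 0.46. The highest of these came from mouse 7, without which the difference was -1.70.

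The ligand Tgfb3, which with Tgfb2 is the form usually made by mesenchymal and neural cells, measured 31.9, 58.3, 64.8, 68.8, 79.7 and 107.5 CPM with PBS in wild-type small intestine. With LPS it measured 2.05, 6.66, 10.4 and 14.2 CPM, below each PBS library (-3.03 ± 0.65, adjusted p = 0.00296). In wild-type colon the PBS libraries measured 79.7, 89.7, 91.8 and 99.2 CPM and the LPS libraries 0.472, 19.3, 25.3, 29.1 and 68.8 CPM. They did not overlap, but the log2 fold change of -1.66 ± 0.59 was not called (adjusted p = 0.0739). It was called without LPS mouse 13 (68.8 CPM), at -2.28 (adjusted p = 0.0220), and by DESeq2 (adjusted p = 0.0325), while mice numbered 11 and above alone gave -0.93. The values in knockout small intestine were 20.2, 70.1, 78.5 and 84.4 CPM with PBS and 8.95, 20.7, 22.5, 26.1 and 31.9 CPM with LPS, and in knockout colon the difference was -0.42 ± 0.59.

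Tgfb2 had lower means with LPS in each of the 4 pairs of groups, without a call over all groups in those tested. In wild-type small intestine the PBS libraries measured 141.3, 167.1, 172.0, 258.7, 359.9 and 412.8 CPM and the LPS libraries 68.0, 80.0, 121.5 and 124.8 CPM. They did not overlap, and the log2 fold change of -1.35 ± 0.50 had an adjusted p of 0.0978 in edgeR. It was called by edgeR in the 2 groups alone (-1.28, adjusted p = 0.0299) and by DESeq2 (adjusted p = 0.0314). In mice numbered 11 and above alone it was -0.77. Wild-type colon gave -0.63 ± 0.49, knockout colon -0.93 ± 0.51 and, as a description, knockout small intestine -1.34 ± 0.50. Tgfb1 stayed at or below 9.91 CPM in each 24 h library, and its log2 fold changes ran from -1.22 ± 1.00 in wild-type small intestine to 1.31 ± 1.00 in knockout colon, with standard errors too wide for a direction.

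The type II receptor Tgfbr2 (chromosome 9, 116084293 to 116175360, minus strand) measured 385.3, 411.8, 511.0 and 616.9 CPM with PBS in wild-type colon and 71.1, 130.1, 134.2, 340.2 and 371.7 CPM with LPS. The groups did not overlap, and the log2 fold change was -1.20 ± 0.45 (adjusted p = 0.0870), called without LPS mouse 13 and by DESeq2 (adjusted p = 0.0448 and 0.0482). In mice numbered 11 and above alone the value was -0.41. In wild-type small intestine it measured 233.3 ± 69.2 CPM with PBS and 241.8 ± 121 CPM with LPS (0.05 ± 0.43), and in knockout colon 399.2 ± 190 and 400.4 ± 214 CPM. Tgfbr1 (chromosome 4, 47353222 to 47414931, plus strand) had group means from 14.2 to 26.4 CPM at 24 h and was not called. Smad7 had group means from 4.84 to 11.5 CPM and Skil (chromosome 3, 31095058 to 31122577, plus strand) from 10.2 to 21.1 CPM, and neither was called.

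Postn measured 520.1, 569.5, 754.3, 812.8 and 1167 CPM with PBS in knockout colon and 176.2, 259.5, 260.5 and 284.4 CPM with LPS. The groups did not overlap, but the log2 fold change of -1.64 ± 0.47 was not called by edgeR (adjusted p = 0.102), while DESeq2 called it (adjusted p = 0.0102). In knockout small intestine, the comparison known beforehand, Postn measured 220.4, 222.4, 288.6 and 837.9 CPM with PBS and 40.8, 62.1, 79.9, 104.3 and 110.8 CPM with LPS (-2.30 ± 0.46, and -1.55 without mouse 7, the highest). In wild-type mice the groups overlapped in both regions (-0.89 ± 0.44 in small intestine and -0.51 ± 0.45 in colon). Tgfbi was not called in those tested. In wild-type colon it measured 146.4, 146.8, 182.3 and 215.9 CPM with PBS, while 4 LPS libraries measured 25.1, 34.8, 50.7 and 54.6 CPM and the fifth, from mouse 3, measured 420.0 CPM.

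**Figure D4:**
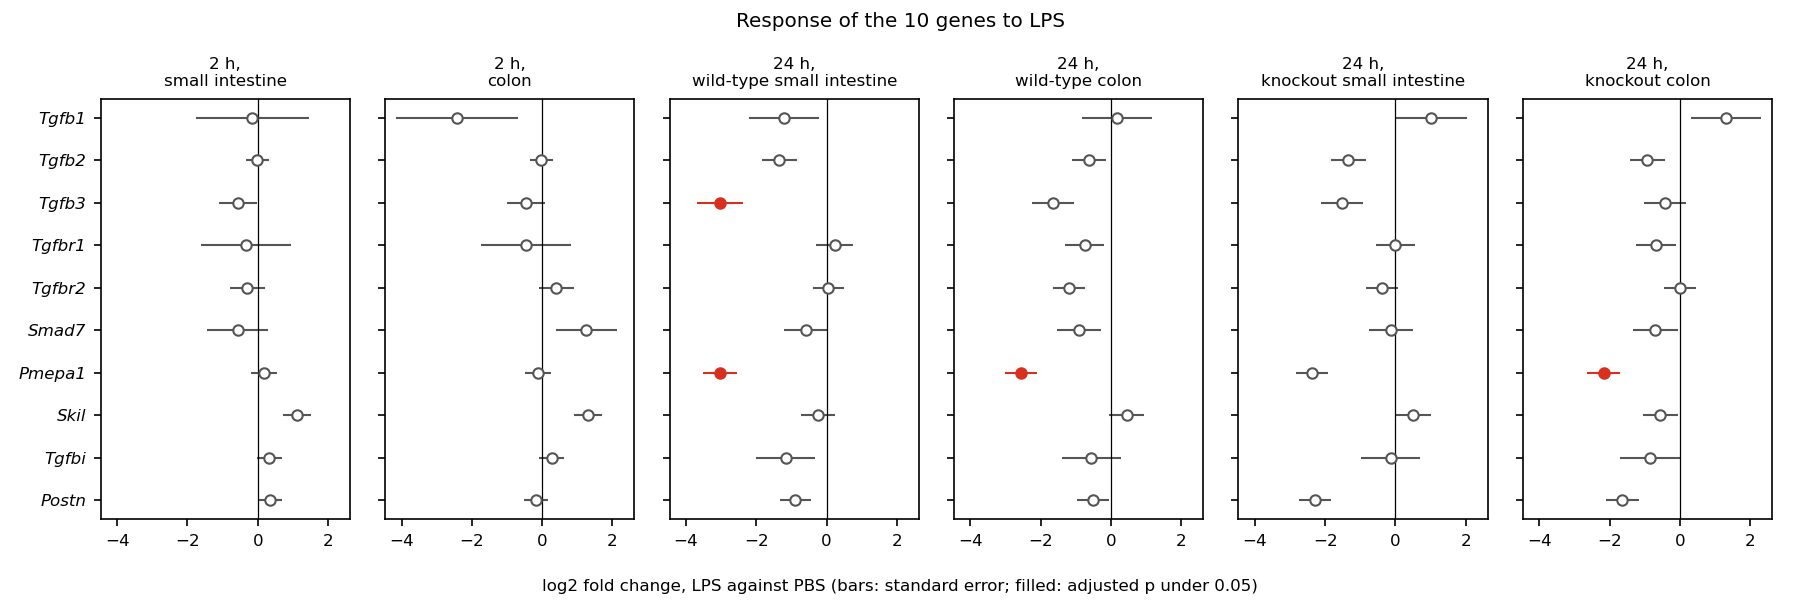
Log2 fold change of LPS against PBS (x axis) with its standard error for the 10 genes (y axis) in 6 comparisons. Filled points have an adjusted p under 0.05, and knockout small intestine is drawn open because its values are a description. Pmepa1 lies between -3.04 and -2.17 in the 3 tested panels of 24 h and near 0 in the 2 panels of 2 h.

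Over the 10 genes, LPS at 24 h gave 2 called lower in wild-type small intestine (Pmepa1 and Tgfb3), where 2.99% of all 14903 genes were called lower and 7.17% were called in either direction. In wild-type colon 1 was called lower (Pmepa1), where 4% of all genes were lower and 7.96% were called either way. In knockout colon 1 was called lower (Pmepa1), where 0.0805% of all genes were lower and 0.718% were called either way. The 107 genes called either way there ran from 28 to 191 with single libraries left out. Most mice of knockout colon also gave the knockout small intestine libraries that chose the genes. The call of Pmepa1 in knockout colon is thus no independent support. For knockout small intestine, whose values chose the genes, no member calls are counted, and 0.188% of all genes were called lower and 0.718% either way. Groups did not overlap, LPS being lower, for 3 members in wild-type small intestine (7.21% of all genes), 3 in wild-type colon (9.13%) and 2 in knockout colon (1.37%). In knockout small intestine this held for Pmepa1 and Postn (3.51% of all genes), from which nothing is read. The median log2 fold change of the 10 was -1.03 in wild-type small intestine, -0.69 in wild-type colon, -0.26 in knockout small intestine and -0.69 in knockout colon. Medians over all genes were -0.13, -0.03, -0.05 and -0.07. The 4 comparisons use separate libraries, though both regions of a mouse are often included.

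At 24 h no member was called for a difference of the LPS response between the genotypes in colon or between the regions in the wild type. In colon, knockout was also set against wild type within PBS and within LPS, and 0 of the 10 genes were called by edgeR, where 0% and 0.429% of all genes were. The 64 genes behind 0.429% ran from 7 to 141 with single libraries left out. They numbered 14 without mouse 3 and 334 in mice numbered 11 and above. DESeq2 called 0 members as well, and only Tgfbr2, with LPS, had an unadjusted p under 0.05. In small intestine the same contrasts share the knockout libraries whose values chose the genes, so they are a description, and nothing is read from them or from the 0% (PBS) and 0.0134% (LPS) of all genes called. With LPS, knockout minus wild-type small intestine was 1.40 ± 0.62 for Tgfb3, 0.63 ± 0.46 for Pmepa1 and -0.83 ± 0.45 for Postn. The interaction of genotype and LPS in colon and that of region and LPS in the wild type called 0 members and 0% of all genes, with no member at an unadjusted p under 0.05 and 0 members by DESeq2. The 0 over all genes rests on the tool and the mice: DESeq2 called 340 genes for genotype and 121 for region, and edgeR in mice numbered 11 and above called 25 and 7. The main fit does not pair the 2 regions of a mouse, and with mouse as a block edgeR called 2 genes for region. For Pmepa1 the fold change in knockout minus that in wild-type colon was 0.40 ± 0.63 (adjusted p = 0.851), and the fold change in wild-type colon minus that in wild-type small intestine was 0.47 ± 0.62 (adjusted p = 0.933). Postn gave -1.13 ± 0.64 for genotype in colon (adjusted p = 0.450) and, as a description, -1.41 ± 0.62 in small intestine. Tgfb3 gave 1.37 ± 0.84 for region in the wild type (adjusted p = 0.748). The lower Tgfb3 of wild-type small intestine is thus not shown to be particular to that region.

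Markers of other cells moved with these comparisons too. In wild-type colon the summed level of 7 fibroblast markers ran from 6472 to 10604 CPM with PBS and from 48.7 to 3070 CPM with LPS, with 4 of 7 called lower, beside the lower Pmepa1. In the other 3 pairs of groups no fibroblast marker was called, and the sums overlapped, for example 234 to 4206 CPM with PBS and 148 to 1978 CPM with LPS in wild-type small intestine. Mesothelial sums separated in wild-type small intestine, from 627 to 2968 CPM with PBS and 223 to 389 CPM with LPS, with 0 of 5 markers called, beside the lower Pmepa1 and Tgfb3. Sums of interstitial cells of Cajal separated in wild-type colon, from 151 to 457 CPM with PBS and 24.5 to 149.9 CPM with LPS, with 0 of 3 markers called. Neutrophil markers were called higher with LPS for 4 of 6 in wild-type small intestine, 2 of 6 in wild-type colon and 1 of 6 in each knockout comparison. The glial sum ran from 625.4 to 2309 CPM with PBS and from 704 to 3632 CPM with LPS in wild-type small intestine, and from 874 to 1604 and 802 to 2098 CPM in wild-type colon. Among PBS libraries of knockout small intestine, mouse 7 had the highest glial sum (2817 CPM), the lowest fibroblast sum (29.2 CPM), the highest Pmepa1, Tgfb2 and Postn and the lowest Tgfbi (3.97 CPM). Likewise mouse 11, with 305.0 CPM of Tgfb2 after LPS against 66.2 to 116.0 CPM in the other 4, had a glial sum of 1474 CPM against 485 to 781 CPM. The part of these cells in the LPS differences was not tested.

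Over the 37 libraries at 24 h, the genes whose log2 CPM ran most like that of Pmepa1 were Scd2 (Pearson r = 0.93), Anxa5 (0.91) and Tafa5 (0.91), among 10558 genes searched. For Tgfb2 they were Ank3 (0.93), Fads1 (0.91) and Sfrp1 (0.91), and for Tgfb3 Prxl2c (0.90), Kdelc2 (0.90) and Tmem150a (0.88). Postn was most like Sfrp1 (0.76), Selenof (0.75) and Phldb1 (0.74), and Tgfbi most like Lsp1 (0.82), Dapk1 (0.78) and Pde1b (0.76). For Tgfbr2 they were Hoxd8 (0.84), Eva1b (0.83) and Kdelr1 (0.82), and for Tgfbr1 Slc23a2 (0.84), Rundc1 (0.82) and Cacna2d1 (0.82). Smad7 ran most like Icmt (0.79), Zfhx4 (0.79) and Zfp512 (0.75). The highest values for Skil (Afg3l1, Cab39 and Hgh1, 0.61 to 0.65) and Tgfb1 (Akna, Zfp738 and Lst1, 0.54 to 0.58) were lower. Among the 10 genes themselves, Tgfb2 and Pmepa1 were most alike (0.83), followed by Pmepa1 and Postn (0.67). These values describe libraries that share treatment, region and purity. They include the knockout small intestine libraries whose values chose the genes, so nothing is read from the pair of Pmepa1 and Postn.

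Of 54 further genes of the pathway, grouped as latency and receptor partners, SMADs and turnover, inhibitors, and reported targets, 51 were tested at 2 h. In small intestine 2 of the 51 were called higher and none lower, and in colon 1 was higher and none lower, beside 1.1% and 0.778% of all genes called either way. Junb, an AP-1 subunit gene that TGF-beta also induces, rose by 4.10 ± 0.41 in small intestine (37.3 to 116.9 CPM with PBS, 1097 to 1927 CPM with LPS, adjusted p = 3.37e-05) and by 3.31 ± 0.40 in colon (adjusted p = 0.000301). Thbs1, which encodes thrombospondin 1, an activator of latent TGF-beta, rose by 4.03 ± 0.73 in small intestine (adjusted p = 0.00593). Over the list, 4 genes had an unadjusted p under 0.05 in each region, and DESeq2 called 2 higher and 1 lower in small intestine and 2 higher and none lower in colon. The median log2 fold change was 0.06 in small intestine and 0.16 in colon, beside -0.02 and -0.00224 over all genes.

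**Figure D5:**
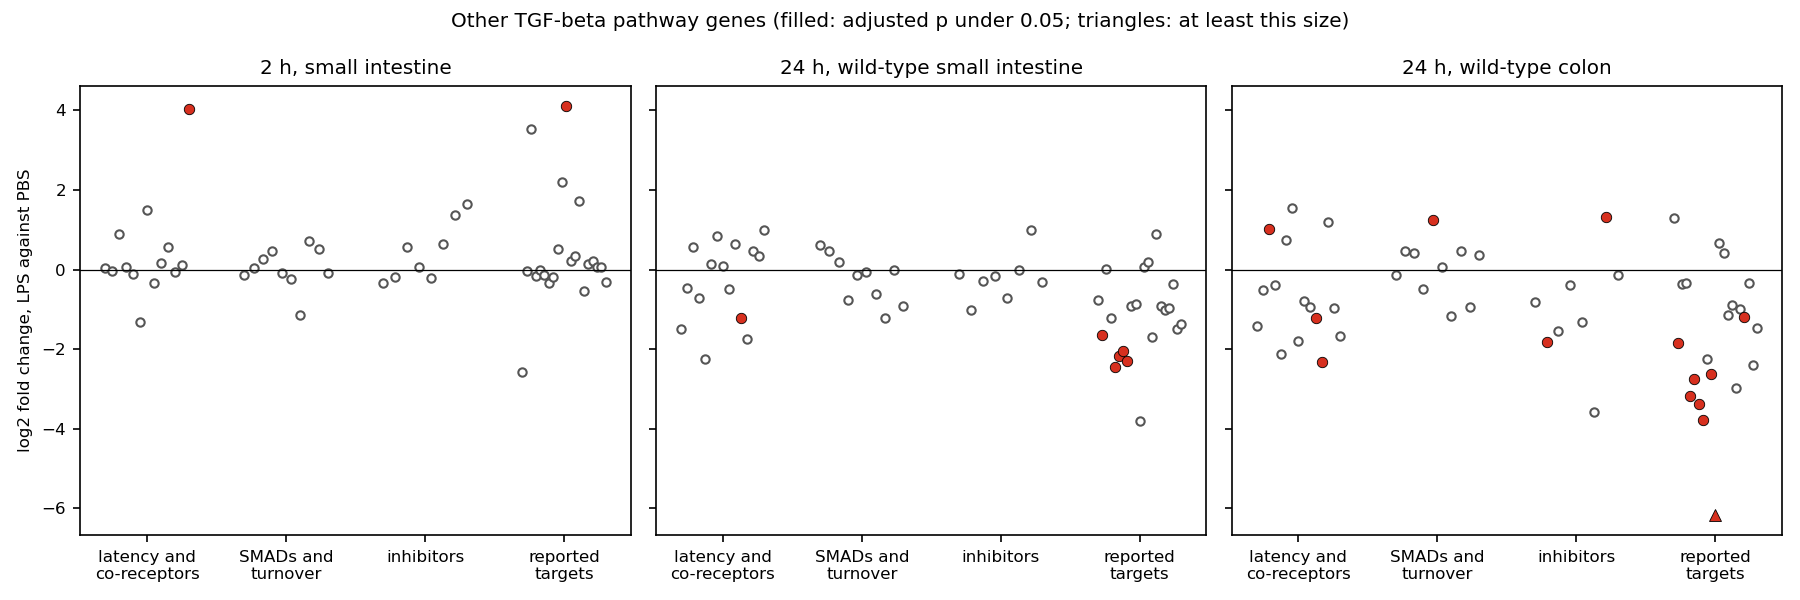
Log2 fold change of LPS against PBS (y axis) for the further pathway genes tested, by role (x axis), in 3 comparisons. Filled points have an adjusted p under 0.05, and the triangle marks Itga11 at its least fold against 3 counts per library. Calls are higher at 2 h and mostly lower at 24 h, with 5 of 6 lower calls among reported targets in wild-type small intestine and 8 of 11 in wild-type colon.

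At 24 h most calls of this list in wild-type mice were lower. In wild-type small intestine edgeR called 6 of 54 lower and none higher, beside 2.99% of all genes lower, and DESeq2 called 12 lower and 2 higher. Among the 6 were Col1a1 (-2.45 ± 0.73), Eln (-2.30 ± 0.67), Col1a2 (-2.16 ± 0.64) and Col3a1 (-2.05 ± 0.63), which encode fibrillar collagens and elastin (adjusted p from 0.0298 to 0.0411). In wild-type colon edgeR called 11 lower and 3 higher, beside 4% of all genes lower and 7.96% either way, and DESeq2 called 17 lower and 3 higher. The largest decreases were those of Itga11, Eln (-3.77 ± 0.68), Col3a1 (-3.37 ± 0.64) and Col1a1 (-3.18 ± 0.73). Itga11, a collagen receptor subunit, measured 26.1 to 68.6 CPM with PBS and at most 2 counts in each LPS library, at least 71.5-fold lower. The genes called higher were Tgif1 (1.32 ± 0.38), a nuclear co-repressor, Smad4 (1.24 ± 0.36) and Furin (1.02 ± 0.32), a protease that processes the TGF-beta precursor. The called collagen genes moved with the fibroblast markers of wild-type colon given above, whose part was not tested. Knockout small intestine, as a description, had 1 gene past the threshold in edgeR (Ltbp3, a latent TGF-beta binding protein gene, -1.54 ± 0.38) and 5 in DESeq2, each lower. In knockout colon edgeR and DESeq2 called none, with 3 at an unadjusted p under 0.05. Median log2 fold changes of the list were -0.55, -0.94, -0.56 and -0.34 in wild-type small intestine, wild-type colon, knockout small intestine and knockout colon, beside -0.13, -0.03, -0.05 and -0.07 over all genes.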

How the data were processed

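RNA of cells labelled EGC was made into 75 Smart-seq2 libraries, per the labels' protocols. In 2 deposited tables the authors give whole-number counts by gene symbol, not normalized, and the submitters' processing notes name Trim Galore 0.4.4, STAR 2.5.3, DESeq2 and the build GRCm38. The read counter and the use of strand are not given in the sources used here, so reads of overlapping or antisense genes cannot be told apart. Library totals had medians of 5449397, 4412983 and 8286820 counts in the untreated, 2 h and 24 h experiments. The level of 3 counts per library, used as a floor, corresponds to 0.0901 to 1.51 CPM, so genes such as Tgfb1 near that level are measured poorly.

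Each experiment was filtered with filterByExpr and fitted over all its groups with edgeR 4.0.16 (TMM, quasi-likelihood test) in R 4.3.3. P-values are two-sided and adjusted by the Benjamini-Hochberg method over all genes tested, in 18 contrasts. A gene was called at an adjusted p under 0.05. Standard errors of log2 fold changes are those implied by the test. They were computed as the absolute log2 fold change divided by the square root of its F statistic. Log2 CPM used a prior count of 2. Lengths and coordinates are those of GENCODE gene models on GRCm38. The fit was tested on simulated counts with known changes. Alternatives were RLE size factors, no filter, sex as a covariate, a replicate block, the 2 groups alone, mice numbered 11 and above, a covariate for mice numbered 10 and below, DESeq2 1.42.0, each library left out in turn and, chosen after seeing the data, both libraries of mouse 3 left out.

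The 10 members, the pathway list, the marker lists and the tests were chosen with earlier results of these data known. A glial marker and a target gene were taken out of these lists and are not reported here. The text names each member. Of the pathway list it names, per LPS comparison, up to 4 called genes in each direction with the largest fold change, if their mean log2 CPM reached 1. For each member it names the 3 genes with the highest correlation over the 37 libraries at 24 h, among genes whose mean log2 CPM reached 3. Knockout against wild type in small intestine, planned as a test, is given as a description, since it shares libraries with the comparison that chose the members. None of 143 replicate pairs held identical counts. No mouse is numbered in the labels of the untreated and 2 h experiments, so p-values there measure only the spread between libraries. At 24 h libraries of the same mouse in the 2 regions deviated together in 10 of 15 pairs (mean correlation 0.121), and LPS and PBS groups share no mouse.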

Additional observations from a re-analysis of the deposited data

Results flagged for a closer look

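In 15 of 160 groups of 4 to 6 libraries, 1 library of a member lay far from the others of its group by Dixon's criterion. Its rate of about 1 in 20 assumes normally distributed values, whereas CPM were used here and the groups reuse libraries across genes. No excess over chance is read from the count. Of the 15, 4 concern Tgfb1, whose level is near the limit of counting: 4.20 CPM in untreated myenteric colon (next 1.81), 4.71 CPM in untreated myenteric small intestine (next 0.668), 2.88 CPM in colon 2 h after LPS (the other 3 at 0) and 5.18 CPM in wild-type small intestine 24 h after LPS (mouse 13, next 0.513).

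Mouse 7 accounted for 3 in knockout small intestine with PBS: Pmepa1 at 357 CPM (next 138.8), Postn at 837.9 CPM (next 288.6) and Tgfbi at 3.97 CPM (next 112.8). In the same knockout small intestine after LPS, Tgfb2 reached 305 CPM in mouse 11 (next 116) and Tgfbi 172 CPM in mouse 17 (next 82.2). In wild-type mice at 24 h, Tgfbi reached 420 CPM in colon after LPS in mouse 3 (next 54.6), and Skil 28.9 CPM in small intestine with PBS in mouse 14 (next 12.0). At 2 h after LPS, Tgfb2 reached 382 CPM in 1 colon library (next 291.3) and Tgfbr1 38.1 CPM in 1 small-intestinal library (next 9.27). In untreated myenteric plexus, Tgfbr2 reached 412.1 CPM in 1 small-intestinal library (next 215) and Tgfbi 532.1 CPM in 1 colon library (next 218.7).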

How the results depend on the processing

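Compared with the values reported, 1943 alternative values kept their direction and side of the threshold or, where no test was made, moved by less than 1 SD between replicates. Another 9 lost a call, 13 gained one, 5 untested ones moved by more and 1 reversed. The tally includes fits that left out a library outside the comparison, and values that were not called. It therefore says little about any single call. Member calls stayed at 2 or 3 in wild-type small intestine. In wild-type colon the count of 1 became 3 with DESeq2, and 1 to 3 when single libraries were left out. In knockout small intestine, given with no test, the median log2 difference of -0.26 ran from -0.28 to -0.13 over the alternatives and from -0.47 to -0.11 over single libraries left out, and in mice numbered 11 and above Pmepa1 was at -1.44, Postn at -1.52 and Tgfb2 at -0.44. In knockout colon 1 became 0 in the 2 groups alone, 0 in mice numbered 11 and above and 2 with DESeq2, with 0 to 1 over single libraries left out. The region-by-LPS term of Tgfb1 in the wild type, 1.39, became -0.84 in mice numbered 11 and above; the cause was not tested.

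Whether sex and replicate number mark libraries of the same mouse could not be settled. Same-numbered pairs had mean correlations of 0.0928 in untreated mice (10 of 30 over 0.1) and 0.0602 at 2 h (5 of 24 over 0.1). Other pairs had -0.0172 and -0.0195. At 24 h, where mice are numbered, pairs of the same mouse had 0.121 and other pairs -0.00157. With the replicate block, 0 members were called at 2 h, 0 in the interactions and 14 over the 4 untreated contrasts, as without it, but Tgfb3 gained a call in small intestine (-1.48) and lost one in colon (-1.68). Genes called with DESeq2 against edgeR numbered 260 against 144 and 276 against 102 at 2 h, and 1859, 2255, 527 and 474 against 1069, 1186, 107 and 107 at 24 h. For knockout against wild type they numbered 58 and 74 against 0 and 0 with PBS and 182 and 712 against 2 and 64 with LPS. In the 2 groups alone edgeR called 1704, 412, 47 and 7 genes at 24 h, more in wild-type small intestine and fewer in the rest. The cause of these changes was not tested. At this depth Tgfb1 was measured least precisely, with standard errors of its LPS log2 fold changes from 0.99 to 1.73.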
